A study of Arabidopsis thaliana with 24 samples.

Results

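EXPA7 (AT1G12560) and EXPA18 (AT1G62980) are Arabidopsis thaliana genes for alpha-expansins of root hair cells. They were taken by name and followed over the whole course of a dexamethasone treatment. Each is measured by 1 probe set, so these are 2 genes of 16552 with a single name on the array and 2 probe sets of 38408. The platform annotation names no other gene for either probe set. Root tips, labelled as root meristems, came from Col-0 seedlings that were 4 days old and grew on MS medium. All of them, those of 0 h included, carried both pRPS5A::TMO5:GR and pRPS5A::LHW:GR. TMO5 and LHW are a pair of transcription factors that act together in the division of vascular cells, and their fusion to the glucocorticoid receptor domain keeps them out of the nucleus until dexamethasone is given. The RPS5A promoter is active in dividing cells of all layers and not in vascular cells alone. Seedlings were moved to dexamethasone for 0, 0.5, 1, 2, 3, 4, 5 or 6 h, with 3 arrays at each time and 24 in all. No transfer without steroid was analysed here, and in every comparison time, transfer and steroid cannot be told apart. Whether the repeats are separate cultures is not stated in the labels. The p-values therefore cover no more than the spread among these arrays, which may be technical.

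Expansins are wall proteins that loosen the bonds between cellulose and other wall polymers without cutting them, which lets a wall under turgor stretch. In the Arabidopsis root epidermis, cells over the cleft between 2 cortical cells become hair cells, and patterning factors set this fate before basic helix-loop-helix factors such as RHD6 and RSL4 switch on the genes of hair outgrowth. EXPA7 and EXPA18 belong to that last group and are widely used as markers of hair cells that are starting to bulge. They are genes of the epidermis, whereas TMO5 and LHW act in the vascular tissue.

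On all arrays of 3, 4, 5 and 6 h both expansins were above every array of 0 h, and their largest step between neighbouring times was that from 2 to 3 h. The largest differences from 0 h, and the only ones called, were at 3 h, by 0.77 ± 0.21 (SE) in log2 for EXPA7 and by 0.96 ± 0.23 for EXPA18, which are 1.71-fold and 1.95-fold. All 3 repeats were higher at 3 h than at 0 h. The higher level of 4 to 6 h over 0.5 to 2 h was that of repeats 1 and 2, since in repeat 3 both genes were already near their late level at 0 to 2 h. In a whole root tip, a larger share of hair cells, more RNA per hair cell and RNA from other cells cannot be told apart.

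The arrays were alike in scale, with medians from 3.86 to 4.01 in log2. The first principal component of all genes ran along the course, and at every time but 6 h repeat 3 lay further along it than repeats 1 and 2. Its lead was smaller at 4 h (11.4 against 9.63 and 10.1) and at 5 h (13.2 against 9.44 and 9.975) than at 0 to 3 h. At 0 h the 3 arrays stood at -27.2, -21.5 and -5.16 on that component, those of 3 h at 8.17, 7.69 and 17.6, and those of 6 h between 11.05 and 13.8. The changes of EXPA7 and EXPA18 are therefore also given without repeat 3 of 0, 0.5, 1 and 2 h. These 4 arrays were the highest of their times for both expansins. Leaving them out lowers the early means, so the estimated rises from 0 to 2 h up to 3 to 6 h grow by construction. It also takes their distance from the other arrays out of the spread within times. The adjusted p-values of that fit are lowered by the same selection and are given as a description. Of 7 listed genes of the stem cell niche, 1 had a probe set with a single name here, and of 12 listed division genes 4 had one. BBM, a stem cell niche factor, had a mean log2 value of 5.20 at 0 h, and AUR1, a mitotic kinase gene, had 7.72. The values carry no detection calls.

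EXPA7 had log2 values of 7.73, 7.88 and 8.51 in repeats 1, 2 and 3 at 0 h. At 0.5 h the values were 7.94, 8.05 and 8.51, at 1 h they were 7.87, 8.05 and 8.53, and at 2 h they were 8.17, 8.28 and 8.73. At each of these times repeat 3 was the highest and stood apart from the other arrays. At 3 h EXPA7 reached 8.69, 8.57 and 9.17, its highest level of the course. Its values at 4 h were 8.74, 8.65 and 8.57, those at 5 h were 8.64, 8.56 and 8.60, and those at 6 h were 8.68, 8.57 and 8.70. At the last 3 times the repeats lay close together, with repeat 3 lowest, between the others and highest in turn.

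EXPA18 had log2 values of 6.29, 6.37 and 7.0 in repeats 1, 2 and 3 at 0 h. At 0.5 h the values were 6.53, 6.43 and 7.08, and at 1 h they were 6.56, 6.54 and 7.22. At 2 h they were 6.46, 6.36 and 7.32, and the SD of 0.53 was the largest of the course. Repeats 1 and 2 stayed low throughout these times and repeat 3 stayed high. At 3 h all 3 arrays were high, at 7.48, 7.43 and 7.65. Values of 7.51, 7.23 and 7.15 followed at 4 h, then 7.46, 7.22 and 7.27 at 5 h, with 7.33, 7.41 and 7.36 when 6 h had passed. No array of 3 to 6 h fell to the level of repeats 1 and 2 at the early times.

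**Figure D1:**
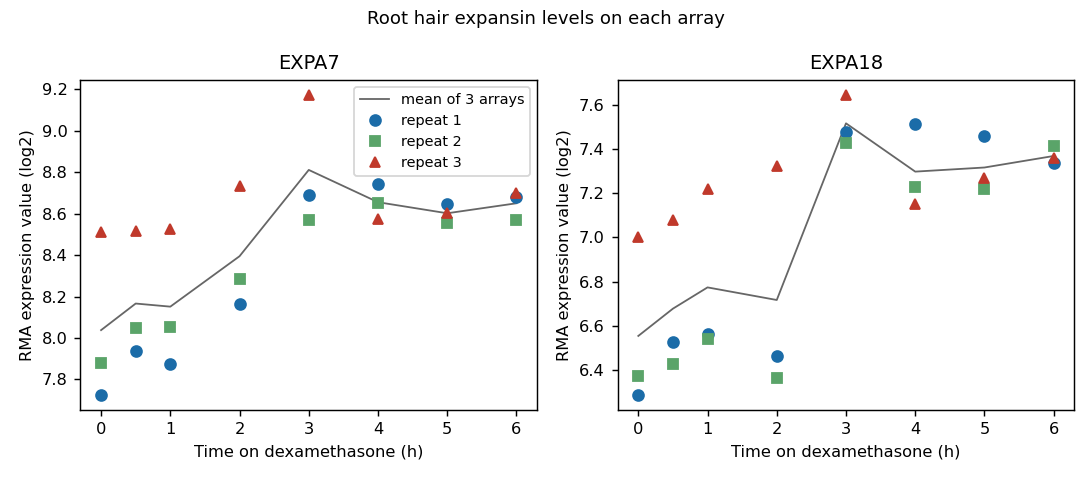
RMA expression values (log2, vertical axis) of EXPA7 (left) and EXPA18 (right) on each of 24 arrays against hours on dexamethasone; symbols mark the repeat number and the line joins the means of 3 arrays. All repeats step up between 2 and 3 h, EXPA18 from 6.46 and 6.36 to 7.48 and 7.43 in repeats 1 and 2, and from the higher 7.32 to 7.65 in repeat 3.

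In order of mean level, EXPA7 ran from 8.04 ± 0.42 (SD, n = 3) at 0 h through 1, 0.5 and 2 h to 5, 6 and 4 h, with 8.81 ± 0.32 at 3 h on top. Arrays of neighbouring times in that order overlapped at every step, and the widest gap, 0.23 between 0.5 and 2 h, was smaller than the pooled SD of 0.27 within times. EXPA18 ran from 6.55 ± 0.39 at 0 h through 0.5, 2 and 1 h to 4, 5 and 6 h, and to 7.52 ± 0.12 at 3 h. Its widest gap, 0.52 between 1 h and 4 h, exceeded the pooled SD of 0.31, but the arrays of those times overlapped through repeat 3 of 1 h. The other steps were smaller than the pooled SD, and only those of 6 and 3 h did not overlap.

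The comparisons with 0 h asked when each gene left its starting level. At 3 h both rose in limma, with an adjusted p of 0.0415 for EXPA7 and of 0.026 for EXPA18. Of all genes, 2.33% were called higher at 3 h, and 1.2% had a larger change than EXPA7 and 0.508% a larger change than EXPA18. The arrays of 3 h lay above all arrays of 0 h for both expansins, as they did for 9.27% of all genes. Both calls lay near the threshold. That of EXPA7 was lost when array 1 or 2 of 0 h was left out (limma adjusted p = 0.204 and 0.147), and likewise for array 1 or 3 of 3 h (0.0679 and 0.219). It also moved just past the threshold, to between 0.0502 and 0.0521, without array 2 of 4 h or any array of 5 or 6 h, which enter only through the shared spread. The call of EXPA18 was lost when array 1 or 2 of 0 h (0.13 and 0.108) or any array of 3 h was left out (0.0528 to 0.121). Without repeat 3 of 0 to 2 h the changes at 3 h were 1.01 for EXPA7 and 1.18 for EXPA18 (limma adjusted p = 4.54e-04 and 4.17e-05). With repeat 3 of 3 h left out too, an alternative chosen after seeing the data, they were 0.83 and 1.12 (6.93e-04 and 2.34e-04). In a fit of the 6 arrays of 0 and 3 h alone, limma gave adjusted p-values of 0.218 for EXPA7 and 0.0857 for EXPA18.

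At 4, 5 and 6 h neither gene was called, although the estimates stayed well above zero. EXPA7 was 0.62, 0.56 and 0.61 above 0 h in log2, with limma adjusted p-values of 0.116, 0.154 and 0.108 and unadjusted p-values of 0.00708, 0.0126 and 0.0075. EXPA18 was 0.74, 0.76 and 0.81 above 0 h, with adjusted p-values of 0.092, 0.0794 and 0.0532 and unadjusted p-values of 0.00462, 0.00385 and 0.0023. All arrays of these times lay above all arrays of 0 h for both genes, against 9.73%, 9.79% and 10% of all genes, and 1.78%, 2.09% and 2.5% of genes were called higher. With a block for the repeat number, which was not taken as a pairing in the main fit, both genes were called at all 3 times. Without array 3 of 0 h, both were also called at all 3 times, with changes of 0.85, 0.80 and 0.85 for EXPA7 and 0.97, 0.98 and 1.04 for EXPA18. EXPA18 was also called at all 3 times without array 3 of 2 h, and at 6 h without array 3 of 0.5 h, array 3 of 1 h or array 2 of 2 h (limma adjusted p from 0.0215 to 0.0491).

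At the early times no change was called, and only that of EXPA7 at 2 h (0.36 ± 0.21, SE) exceeded its SE. EXPA7 was 0.13, 0.11 and 0.36 above 0 h at 0.5, 1 and 2 h, with limma adjusted p-values of 0.933, 0.937 and 0.557. EXPA18 was 0.12, 0.22 and 0.16 above it, with adjusted p-values of 0.945, 0.871 and 0.867. The 95% interval at 1 h ran from -0.32 to 0.54 for EXPA7 and from -0.27 to 0.71 for EXPA18, and both upper bounds lie just below the estimates of 4 to 6 h. At 2 h, however, the interval of EXPA7 ran from -0.07 to 0.79 and held its estimates of 3 to 6 h. Without repeat 3 of 0 to 2 h the early changes were 0.19, 0.16 and 0.42 for EXPA7 and 0.15, 0.22 and 0.08 for EXPA18, and none was called. Few genes were called higher at these times, 0.145%, 0.326% and 0.501% of all. The sign of the early estimates turned when single arrays were left out. EXPA7 moved to -0.05 at 0.5 h without array 3 of that time and to -0.07 at 1 h without array 3 of 1 h, and it also turned at both times without array 1 of 0 h (-0.03 and -0.04). EXPA18 moved to -0.08 at 0.5 h, -0.0040 at 1 h and -0.14 at 2 h without array 3 of the same time, and to -0.01 at 0.5 h without array 1 of 0 h.

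**Figure D2:**
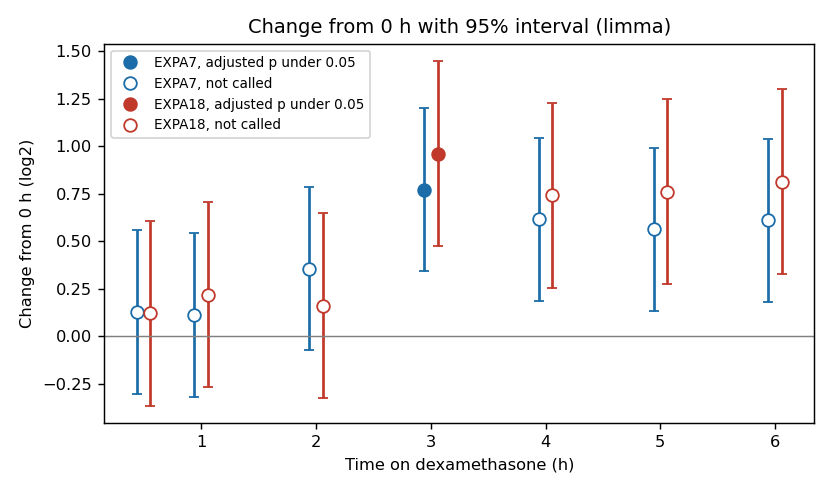
Change from 0 h (log2, vertical axis) of EXPA7 and EXPA18 at 7 times on dexamethasone (h, horizontal axis), with bars for the 95% interval of limma; filled points have an adjusted p under 0.05. The filled points are those of 3 h, at 0.77 and 0.96, and the points of 4 to 6 h lie between 0.56 and 0.81.

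Between 2 and 3 h EXPA18 was higher by 0.80 ± 0.23 (SE) and EXPA7 by 0.42 ± 0.21. Only 0.272% of genes had a larger step than EXPA18 and 3.38% a larger step than EXPA7. Neither step was called in limma (adjusted p = 0.386 and 0.575, unadjusted p = 0.00266 and 0.0568), and 0.0121% of all genes were called higher over it. Without repeat 3 of 0, 0.5, 1 and 2 h the step of EXPA18 was 1.1 with an adjusted p of 7.88e-04, and that of EXPA7 was 0.59 with an adjusted p of 0.0768. With repeat 3 of 3 h left out too, the steps were 1.04 and 0.40 (0.00538 and 0.215). The step of EXPA7 was 0.53, 0.28 and 0.44 in repeats 1, 2 and 3, and that of EXPA18 was 1.01, 1.06 and 0.32. When single arrays were left out, the step moved between 0.235 and 0.59 for EXPA7, lowest without array 3 of 3 h, and between 0.62 and 1.1 for EXPA18, highest without array 3 of 2 h. From 3 to 6 h EXPA7 had a change of -0.16, with a 95% interval from -0.59 to 0.27, and EXPA18 a change of -0.15, from -0.63 to 0.34. Neither was called (limma adjusted p = 0.999 for both), and the sign turned for EXPA7 without array 3 of 3 h (0.02). The intervals leave room for a fall back by more than 0.5 in log2.

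A further comparison took only seedlings that had been transferred, with 4, 5 and 6 h as late and 0.5, 1 and 2 h as early times. EXPA18 was higher late by 0.60 ± 0.13 (SE), a 1.52-fold difference with a limma adjusted p of 0.00789. EXPA7 was higher late by 0.40 ± 0.12, a 1.32-fold difference with an adjusted p of 0.0473. Of all genes, 4.39% were called higher in this comparison. Late and early arrays of both genes overlapped, through the repeat 3 arrays of the early times, whereas 0.659% of all genes had every late array above every early one. The call of EXPA18 held without any one array (adjusted p from 8.43e-04 to 0.0213) and in all 8 other alternatives. These fits cannot show how far the call rests on repeats 1 and 2, since none left out either of them at all times. Leaving out early repeat 3 favours the call by construction. The call of EXPA7 was lost in 17 of 24 fits without 1 array. It held without array 1 or 3 of 0 h, array 3 of 0.5, 1 or 2 h, or array 2 or 3 of 3 h, and the adjusted p reached 0.103 without array 1 of 2 h. Centring every array on its own median ended it as well (adjusted p = 0.0526). Over all 7 changes from 0 h, the moderated F test of limma called EXPA18 (adjusted p = 0.0382), with 4.5% of all genes, and EXPA7 had an adjusted p of 0.108. The F call of EXPA18 held without array 3 of 0, 0.5, 1, 2 or 4 h or array 2 of 2 h and was lost without any other single array, with adjusted p-values up to 0.0806. Without array 3 of 0 h the F test called EXPA7 (0.025).

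The repeats differed in this comparison. In repeat 1 the late mean of EXPA18 exceeded the early mean by 0.92 and in repeat 2 by 0.84, but in repeat 3 by 0.05. For EXPA7 the differences were 0.70, 0.47 and 0.03. Repeat 3 did move between 0 and 3 h, by 0.66 for EXPA7 and 0.65 for EXPA18, against 0.97 and 1.19 in repeat 1 and 0.69 and 1.05 in repeat 2. By 6 h repeat 3 stood 0.19 and 0.36 above its own 0 h array, while repeats 1 and 2 stood 0.95 and 0.69 above theirs for EXPA7 and 1.05 and 1.04 for EXPA18. The fit without repeat 3 of 0 to 2 h gave late against early differences of 0.58 for EXPA7 and 0.85 for EXPA18 (limma adjusted p = 2.62e-04 and 1.34e-06), with the selection named above.

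The early offset of repeat 3 was large in these genes beside others. Averaged over 0, 0.5, 1 and 2 h, repeat 3 exceeded the mean of repeats 1 and 2 by 0.58 for EXPA7 and by 0.71 for EXPA18. An offset as large was found in 108 genes, 0.652% of all, for EXPA7 and in 29 genes, 0.175%, for EXPA18. Repeat 3 was the highest array at all 4 early times in 858 genes, or 5.18%, and the lowest at all 4 in 585 genes, or 3.53%. At 3 h repeat 3 of EXPA7 was still 0.54 above the others. Averaged over 3 to 6 h the offsets were 0.13 and -0.03. No label tells what set these arrays apart, and its part in the changes over time was not tested.

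**Figure D3:**
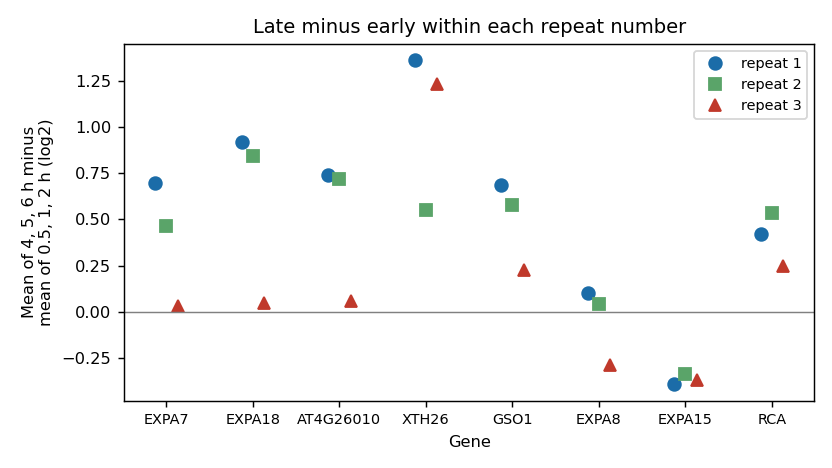
Late mean (4, 5 and 6 h) minus early mean (0.5, 1 and 2 h) in log2 (vertical axis) within each repeat number, for the expansins EXPA7 and EXPA18 and 6 genes described in the text (horizontal axis). Repeat 3 is near zero for EXPA7, EXPA18 and AT4G26010 but at 1.23 for XTH26.

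From the early to the late times EXPA18 moved further than EXPA7 in repeats 1 and 2, but hardly so in repeat 3 (0.05 against 0.03). From 0 to 3 h it did not move further in repeat 3 (0.65 against 0.66). The log2 difference of EXPA18 minus EXPA7 on the same array has no meaning as a level, since it sets one probe set against another, but its shift can be read. It was -1.51 ± 0.20 (SD, n = 9) on the early arrays and -1.31 ± 0.10 (n = 9) on the late arrays, a shift of 0.21 (two-sided exact permutation test, p = 0.00806). The permutation treats arrays of several times and repeats as exchangeable, so its p-values are descriptive. Without single arrays the shift stayed between 0.16 and 0.23, and without repeat 3 of the early times it was 0.27 (exact permutation p = 0.00759). The mean difference at 1 h, -1.38, was near that of 4 h, -1.36. Early arrays of 2 h had the lowest difference, with a mean of -1.68. At 2 h EXPA7 was 0.36 above 0 h and EXPA18 0.16. Whether the probes of one expansin also bind transcripts of the other was not tested.

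Plotted against each other, the 24 arrays fell into separate clusters. The 8 arrays of repeats 1 and 2 at 0 to 2 h had EXPA18 values up to 6.56 and EXPA7 values up to 8.28. The other 16 arrays had EXPA18 values from 7.0 and EXPA7 values from 8.51, and they held all 12 arrays of 3 to 6 h and the 4 arrays of repeat 3 at 0 to 2 h. Within the cluster of 16, Pearson's r was 0.73 (permutation p = 3.7e-04, adjusted over both clusters 7.4e-04) and Spearman's rho was 0.74 (permutation p = 0.00165, adjusted 0.0033). Without the 2 arrays farthest from the median of EXPA7 there, r was 0.62. Within the cluster of 8, r was 0.12 and rho 0.02 (exact permutation p = 0.767 and 0.977, the same after adjustment). Both clusters were defined from these values, and each holds arrays of several times that the permutations treat as exchangeable. The p-values within them are therefore descriptive, and no value pooled over them is read as a relation.

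**Figure D4:**
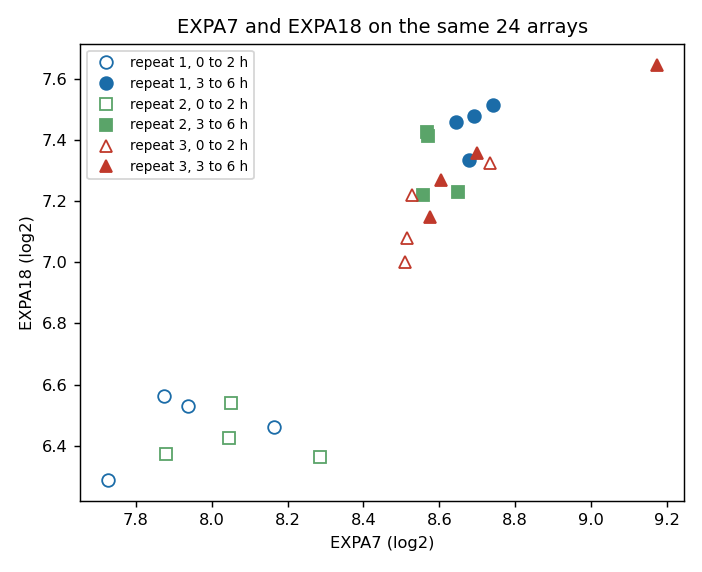
EXPA18 (log2, vertical axis) against EXPA7 (log2, horizontal axis) on 24 arrays; symbols mark the repeat number, open for 0 to 2 h and filled for 3 to 6 h. The 8 open symbols of repeats 1 and 2 form the lower cluster, and the 4 open symbols of repeat 3 lie with the 12 arrays of 3 to 6 h.

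Other genes of root hair growth were looked at next. Of 12 listed regulators of hair outgrowth, 2 had a probe set with a single name, AT2G14760 and AT5G43175, and neither was called in any of the 10 comparisons. Their mean log2 values at 0 h were 1.84 and 1.33, far below the array medians. The lack of a call therefore does not show that they were unchanged. RHD6, RSL2 and RSL4 were not analysed here. Of 37 listed genes of the hair wall with a known locus, 3 were measured. XTH26, an enzyme that cuts and rejoins xyloglucan chains, was higher late than early by 1.05 ± 0.19 (SE, limma adjusted p = 0.00146). AT4G26010, placed on that list, was higher late by 0.51 ± 0.11 (adjusted p = 0.00758) and rose at 3 h by 1.00 (adjusted p = 0.00637). CSLD2, a cellulose synthase-like gene of hair tips, had a late difference of 0.03 and was not called. In the list as a whole, without the expansins, 2 of 3 genes were called higher late, against 4.39% of all genes, and the median difference was 0.51 against -0.02 for all genes. With 3 genes this does not speak for the hair wall at large.

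The genes on that list differed in their repeats. AT4G26010 had log2 values of 7.82 to 8.53 at 0 h and 8.97 to 9.32 at 3 h, and its repeat 3 stood 0.58 above the others at 0 to 2 h. It resembled EXPA7 in this, and its late minus early difference was 0.74, 0.72 and 0.06 in repeats 1, 2 and 3. XTH26 had no such offset (0.00), and its late minus early difference was 1.36, 0.55 and 1.23. Its 0 h arrays were wide, with a mean of 3.98 ± 0.64 (SD, n = 3), and no change from 0 h was called. The means of XTH26 at 0.5, 1 and 2 h were 3.30, 3.87 and 3.62, below that of 0 h. They lay near or below the array medians. The late against early calls of both genes held in all 24 fits without 1 array.

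Of 20 listed genes of hair tip growth, 2 were measured. For 1 of them no result is given here, so no count is given for this list and nothing is read from it. The other, FER, a receptor kinase needed for hair integrity, had a late difference of 0.09 and was not called.

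Of 12 listed genes that divide the epidermis into hair and non-hair cells, TRY and JKD were measured. TRY, a small MYB protein of Arabidopsis that moves between cells and favours hair fate in the root, fell by 1.04 at 2 h (limma adjusted p = 8.74e-04) and fell by 1.09 at 3 h (adjusted p = 3.59e-04). Its mean log2 value went from 4.16 ± 0.04 (SD, n = 3) at 0 h to 3.08 ± 0.23 at 3 h, with no overlap of arrays and an offset of -0.09 in repeat 3. The mean of 3 h lay below the lowest array median of 3.86. The call at 3 h held in all 24 fits without 1 array. Of all genes, 0.471% were called lower at 2 h and 1.17% at 3 h. JKD, a zinc finger factor of the ground tissue that influences epidermal patterning, was higher late than early by 0.23 (adjusted p = 0.0164). Its values at 3 and 6 h were 0.22 below and 0.01 above those of 0 h and were not called.

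Among the expansin family, 20 genes besides EXPA7 and EXPA18 were measured of 32 with a known locus. At 3 h 2 of these 20 rose, EXPA8 by 0.95 (limma adjusted p = 0.00814) and EXPA15 by 0.58 (adjusted p = 0.00383), and none was called lower, where 2.33% of all genes were called higher. The median change of the 20 was 0.03, against -0.03 for all genes. At 0 h EXPA16, EXPA21, EXPA22, EXPA23, EXPA24, EXPA25, EXPB2, EXPB4, EXPB5, EXLA3 and EXLB1 had means from 1.18 (EXPB4) to 3.20 (EXPA25). These lay below the lowest array median of 3.86. Changes in them may go unseen, which limits the median and any ranking of the family. Late against early, 1 was called higher and 2 lower, with 4.39% of all genes called higher and 2.6% lower, and the median of the 20 was 0.00. EXPA4 was higher late by 0.34 (adjusted p = 0.0305), EXPA15 was lower by 0.36 (adjusted p = 8.47e-04) and EXPA9 was lower by 0.18 (adjusted p = 0.0342). The calls of EXPA4 and EXPA9 held in 16 and 13 of 24 fits without 1 array and that of EXPA15 in all 24, and EXPA4 was not called without repeat 3 of 0 to 2 h (0.31, adjusted p = 0.0811). Among the 22 expansins measured, the highest late against early differences were those of EXPA18 and EXPA7, followed by EXPA4. The gap between EXPA7 and EXPA4 was not tested. That order belongs to this comparison. Against 0 h, EXPA8 was higher at 4 h by 0.95 (limma adjusted p = 0.00871), more than EXPA18 (0.74) and EXPA7 (0.62).

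EXPA8 and EXPA15, 2 further alpha-expansins, were called at 1 h, where EXPA7 and EXPA18 were not, but the difference between the genes was not tested. EXPA8 had risen by 0.91 after 1 h in limma (adjusted p = 0.0318), and it was 0.87 above 0 h after 2 h. Its mean log2 value was 5.28 ± 0.28 (SD, n = 3) at 0 h and 6.19 ± 0.29 at 1 h. EXPA15 had risen by 0.51 after 1 h (adjusted p = 0.0318), and it was 0.65 above 0 h after 2 h. Its mean went from 5.87 ± 0.11 at 0 h to 6.53 ± 0.08 at 2 h and back to 5.83 ± 0.12 at 6 h. The fall of EXPA15 from 3 to 6 h was called, at -0.63 (adjusted p = 0.0335), with 0.0362% of all genes called lower over that step. EXPA8 showed the repeat 3 offset, 0.47 at 0 to 2 h, and EXPA15 did not (-0.05). Without repeat 3 of 0 to 2 h, the change at 1 h was 0.90 for EXPA8 (limma adjusted p = 0.0352) and 0.58 for EXPA15, whose call was lost (0.0787). The calls at 1 h held in 20 of 24 fits without 1 array for both genes, and that of EXPA15 from 3 to 6 h in 16.

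**Figure D5:**
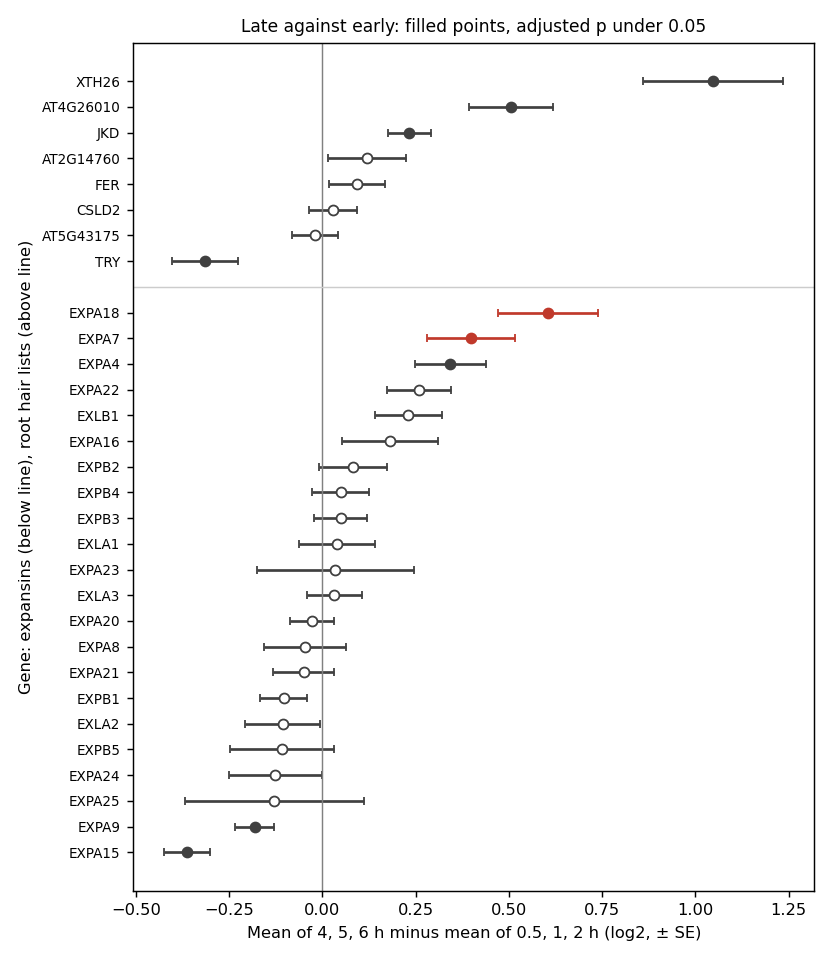
Late (4, 5, 6 h) minus early (0.5, 1, 2 h) log2 difference with its SE (horizontal axis) for 22 measured expansins below the line and 8 genes of the root hair lists above it; filled points have a limma adjusted p under 0.05. EXPA18 at 0.60 and EXPA7 at 0.40 lead the expansins, EXPA15 is lowest at -0.36, and XTH26 is highest of all at 1.05.

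Genes of other tissues gave these values beside the rise. GSO1, a receptor kinase needed for the endodermal barrier, rose by 0.77 at 3 h (limma adjusted p = 0.0395) and was higher late than early by 0.50 (adjusted p = 0.0108), with a repeat 3 offset of 0.55 at 0 to 2 h. It was the only one measured of 9 listed endodermal genes. At 0 h its arrays lay between 6.32 and 7.08 and at 3 h between 7.19 and 7.63, and its 3 h call held in 20 of 24 fits without 1 array. AT1G62500, the entry of the cortex list, had a change of -0.77 at 3 h (adjusted p = 0.0177). Its mean log2 values of 2.07 at 0 h and 1.30 at 3 h lay far below the array medians, so little is read from this change. That call held in 20 of 24 fits without 1 array. RCA, a gene of photosynthetic tissue and the only one measured of 5 on the shoot list, rose by 0.68 at 3 h (adjusted p = 0.00884) and was higher late by 0.40 (adjusted p = 0.00345), with a repeat 3 offset of 0.04. At 0 h its arrays lay between 4.49 and 4.65 and at 3 h between 4.98 and 5.53. BBM, the division genes AUR1, AUR2, PRL and ICU2, and the phloem genes OPS and CLE45 were not called in any comparison. BBM had a repeat 3 offset of -0.45, opposite in sign to that of the expansins. The part of these tissues in the rise of the expansins was not tested. EIN3, a factor of ethylene response, had a change of 0.12 at 3 h and was not called, and the listed genes of the root cap, xylem, pericycle, auxin response, cytokinin supply and phosphate response were not analysed here.

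The genes most like each expansin were ranked by Pearson's r over the 24 arrays among genes past the F test. These values are descriptive, since all points share the same arrays and both clusters. For EXPA7 the 6 highest were AT4G26010 (r = 0.96), AT1G30870 (0.95), AT2G47890 (0.94), AT4G30320 (0.94), AT3G51330 (0.94) and AT5G57625 (0.93). EXPA18 came at rank 8, with 0.93. For EXPA18 the 6 highest were AT2G47890 (0.95), AT5G04960 (0.94), AT4G30320 (0.94), AT4G26010 (0.94), AT5G57625 (0.94) and AT3G09540 (0.94). The lists for EXPA7 and EXPA18 thus had AT4G26010, AT2G47890, AT4G30320 and AT5G57625 in common. Spearman's rho of the genes listed for EXPA7 lay between 0.83 and 0.90 and of those for EXPA18 between 0.81 and 0.90.

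The 8 genes were chosen on these arrays, so what they share with the expansins over time and in repeat 3 follows from that choice and is given as a description. Their late against early differences lay between 0.43 for AT2G47890 and 0.77 for AT5G04960. Their mean repeat 3 offsets at 0 to 2 h ran from 0.42 for AT3G51330 to 0.70 for AT4G30320. When time means were removed, the genes closest to EXPA7 were AT1G34040 (r = 0.96), AT2G12400 (0.94) and AT2G39430 (0.94), and those closest to EXPA18 were AT5G04960 (0.93), AT4G26010 (0.92) and ACA.l (0.92). ACA.l followed EXPA18 within times but not between them. Its late against early difference was -0.09, its repeat 3 offset at 0 to 2 h was 0.43, and its r over the 24 arrays was 0.29.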

How the data were processed

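Total RNA of root tips was hybridised to Affymetrix whole-transcript arrays, 1 array per sample. The authors deposited log2 values. RMA is the method named in the submitters' processing notes: it corrects background, quantile-normalizes the arrays and summarises each probe set, so a shift of most genes can be hidden. The RMA version, like any genome build, is not given in the sources used here, and no coordinates are printed. Of 38408 probe sets, the platform annotation pairs 16746 with 1 gene, 758 with several and leaves 20904 unnamed here. Current symbols came from RefSeq's TAIR10.1 table (16697 matched), and probe sets of a gene were averaged (16552 genes, 165 with several).

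Groups were the 8 times in the sample titles. A linear model with 8 means was fitted to all 24 arrays and all genes with limma 3.58.1 in R 4.3.3 (lmFit, eBayes), and a call is a p under 0.05 after Benjamini-Hochberg adjustment over all genes. The 10 comparisons were 7 with 0 h, 2 to 3 h, 3 to 6 h, and late against early. This fit across genes was tested on simulated data with independent noise, the same spread at all times and no offset of a repeat. That test does not cover the repeat 3 offset. The exact permutation test of EXPA18 minus EXPA7 used SciPy 1.17.1. Permutations for the correlations were coded directly, exact or with 100000 resamples. The precision is limited by 3 arrays per time. Repeats of different times were treated as unpaired.

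The genes named are EXPA7, EXPA18, their 6 closest genes over all arrays and 3 within times, and members of lists of root hair, expansin, tissue and hormone genes, up to 6 called and 3 not called per list, while any measured expansin or root hair gene may be named. Members, lists, comparisons and alternatives were chosen with earlier results of these data known. List genes with no single-gene probe set were not analysed here. Sequences were not used here. The result of 1 measured root hair list gene is not reported here.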

Additional observations from a re-analysis of the deposited data

How the results depend on the processing

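Limits first. Repeat 3 of 0 to 2 h moves every early mean of both genes, each call against 0 h rests on 3 arrays of that time, and RMA values carry no depth or detection call. The alternatives were median centring, a second quantile normalization, array weights, a block for the repeat number, leaving out dim genes (the lowest 25%), all probe sets by ID, fits of the arrays compared, no repeat 3 at 0 to 2 h, and each array left out. The call of EXPA18 late against early held in all of them (0.56 to 0.85, and 0.55 to 0.71 without single arrays). None of them left out repeat 1 or 2 at all times, so how far the call rests on these repeats was not tested. The cause of the changes below was not tested.

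For EXPA7 the 3 h call was lost with array weights (0.75, adjusted p = 0.0538), over all probe sets (0.77, adjusted p = 0.0656) and in the fit of the arrays compared (0.77, adjusted p = 0.218), and the late against early call after median centring (0.36) and over all probe sets (0.40, adjusted p = 0.0688). For EXPA18 the 3 h call was lost in the fit of the arrays compared (0.96), and the F test over all probe sets (adjusted p = 0.0755). EXPA18 was called at 6 h after a second quantile normalization (0.80, adjusted p = 0.048), with array weights (0.83, adjusted p = 0.0475) and without dim genes (0.81, adjusted p = 0.0429).

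Same-numbered arrays of different times had deviations from the time means that correlated by -0.03 to 0.22, over 0.1 in 14 of 84 pairs and for all 3 numbers in 0 of 28 pairs of times, and the numbers were not taken as pairs, although repeat 3 stood apart at 0 to 2 h. With the replicate block both genes were called at 4, 5 and 6 h (limma adjusted p = 0.0249, 0.0389 and 0.0224 for changes of 0.62, 0.56 and 0.61 in EXPA7, and 0.0338, 0.0277 and 0.0162 for 0.74, 0.76 and 0.81 in EXPA18), as was EXPA7 in the F test (0.0118), and no other call of the 2 genes changed. Without repeat 3 of 0 to 2 h the calls gained were EXPA7 at 4, 5 and 6 h (0.85, 0.80 and 0.85, adjusted p up to 0.00291) and in the F test (adjusted p = 7.39e-04), and EXPA18 at 4, 5 and 6 h (0.97, 0.98 and 1.04, adjusted p up to 2.16e-04) and from 2 to 3 h (1.1), the last also with repeat 3 of 3 h left out (1.04).

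Without single arrays, the changes of EXPA7 ran from -0.046 to 0.36 at 0.5 h, -0.075 to 0.35 at 1 h, 0.19 to 0.59 at 2 h, 0.59 to 1.01 at 3 h, 0.46 to 0.85 at 4 h, 0.41 to 0.80 at 5 h and 0.46 to 0.85 at 6 h, from 0.235 to 0.59 between 2 and 3 h, from -0.28 to 0.0205 between 3 and 6 h, and from 0.35 to 0.46 late against early, with F test adjusted p from 0.025 to 0.21. Those of EXPA18 ran from -0.077 to 0.35 at 0.5 h, -0.0040 to 0.44 at 1 h, -0.14 to 0.39 at 2 h, 0.83 to 1.18 at 3 h, 0.61 to 0.97 at 4 h, 0.63 to 0.98 at 5 h and 0.68 to 1.04 at 6 h and 0.62 to 1.1 between 2 and 3 h, with F test adjusted p from 0.00509 to 0.0806. The shift of EXPA18 minus EXPA7 held in every fit run, with permutation p-values that are descriptive.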
